A study of Mus musculus with 7 samples.

Results

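The proteasome genes described here encode the constitutive subunits of the proteasome, the protease that degrades ubiquitin-tagged proteins. They were taken by gene symbol from a list of 34, with the probe set of the highest mean over the arrays for each gene. The array held a probe set named for 33 of them, 1 each, out of 19505 named genes. These were 13 core particle genes and 20 regulatory particle genes. Psmb5, the chymotrypsin-like catalytic subunit, was not analysed here.

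The samples were microglia, the macrophages of the brain, on 7 arrays. All came from 5xFAD mice of the C57BL/6 strain, which carry human amyloid precursor protein and presenilin transgenes driven by a neuronal promoter and form amyloid plaques. The 3 wildtype samples had the genotype 5xFAD;B2m+/+ and the 4 knockout samples had 5xFAD;B2m-/-, so the transgenes were shared by both groups. B2m encodes beta-2-microglobulin, the partner that class I heavy chains need to reach the cell surface, and its loss also limits the CD8+ T cells that depend on class I. The labels do not confine the loss to microglia. Live CD45+ CD11b+ cells were sorted, a gate that other myeloid cells of the brain also pass. The labels used here give no age, sex or batch, and none says that the samples came from separate animals. The p-values thus rest on spread between arrays that could be technical. With 7 arrays, their number limits the precision.

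The proteasome has a barrel-shaped core particle of stacked alpha and beta rings, with the cutting sites inside the beta rings. A regulatory particle caps the barrel. Its receptors bind ubiquitin, its lid removes ubiquitin from the substrate, and the ATPases of its base unfold the substrate and feed it through the gate in the alpha ring. In cells that receive interferon signals, inducible catalytic subunits can replace the constitutive ones in newly built cores and change the peptides made for MHC class I. The constitutive genes are commonly transcribed together, and the factor Nfe2l1 raises them through antioxidant response elements when degradation falls behind.

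B2m itself had a log2 value of 13.41 ± 0.017 (SD, n = 3) where it was intact. It had 10.41 ± 0.13 (SD, n = 4) where it was disrupted (limma adjusted p = 1.54e-07), and each array matched its genotype label. Of 12 microglia markers, 11 were named on the array and each was brighter than 95% of the negative control rows in all 7 arrays. Markers of T cells (5 genes), natural killer cells (4), B cells (4), oligodendrocytes (5), astrocytes (6) and neurons (6) lay below that level in all 7. Endothelial and mural, neutrophil, monocyte and border macrophage markers were above it in part, and they are given below. In bulk samples such as these, fewer cells of a type and less RNA per cell cannot be told apart.

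Most proteasome genes had slightly higher mRNA values in the knockout microglia, and none passed the adjusted test. The difference, knockout minus wildtype on the log2 scale, was above 0 for 29 of 33 genes, where 48.6% of all 10004 tested genes were above 0. The median difference over the 33 was 0.19, a ratio of 1.14, against -0.0055 over all tested genes, and the quartiles were 0.15 and 0.25. At an unadjusted limma p under 0.05, 10 of 33 were higher and 0 were lower. Over all tested genes, 8.39% were higher and 3.54% lower at that threshold. Of the 10, Psmd13 and Psmd14 lay under the negative control level in all 7 arrays and Psmd6 in the 3 wildtype arrays. After Benjamini-Hochberg adjustment over all tested genes, 0 of 33 passed 0.05, with adjusted p from 0.315 to 0.974, while 5 genes of the whole table, or 0.05%, passed.

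In 12 of the 33 genes every knockout array lay above every wildtype array, and in 0 every knockout array lay below. Those shares were 7.1% and 3.8% over all tested genes. The 12 were Psma2, Psma5, Psma6, Psmb1, Psmb6, Psmb7, Psmc1, Psmd4, Psmd6, Psmd12, Psmd13 and Psmd14. A gene was tested when it was brighter than the median named gene on at least 3 arrays, and all 33 passed. Among the 6070 genes past a stricter filter on dim genes, 11% were higher at an unadjusted p under 0.05 and 53.9% had a difference above 0. Bright genes thus leaned the same way, to a smaller extent than the 33.

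**Figure D1:**
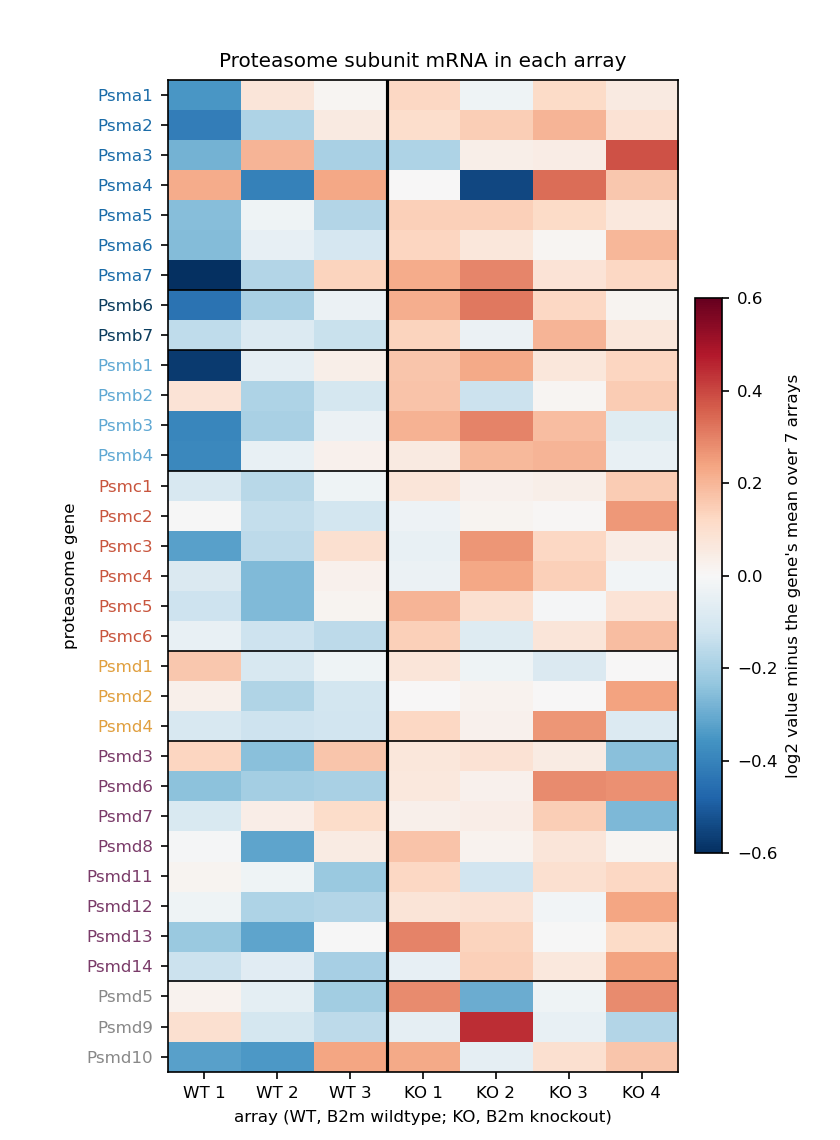
Log2 value of each of the 33 proteasome genes in each array, as the deviation from that gene's mean over 7 arrays (red above, blue below). Horizontal lines separate, from the top, the alpha ring, catalytic beta, other beta, base ATPase, other base, lid and chaperone genes. Blue lies mostly in wildtype arrays 1 and 2, which held the lowest value of 13 and 12 genes.

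The alpha ring, whose subunits form the gate of the barrel, had 6 of 7 genes above 0 and a median difference of 0.24. Of these, 4 were higher at an unadjusted p under 0.05 and 3 did not overlap between genotypes. Those shares were 8.39% and 7.1% over all tested genes. Psma5 read 11.45, 11.68 and 11.53 in wildtype samples, against 11.85, 11.85, 11.82 and 11.77 in the samples without B2m. The lowest knockout array was above the highest wildtype array. The difference was 0.27 ± 0.097 (SE), with a limma adjusted p of 0.356. Psma2 read 10.92, 11.15 and 11.39 in wildtype samples, against 11.44, 11.48, 11.54 and 11.42 in the samples without B2m. Its 3 wildtype arrays spread over a wider range than the 4 knockout arrays, and the groups did not overlap. The difference was 0.32 ± 0.12 (SE; limma adjusted p = 0.367), and without wildtype array 1 it was 0.2.

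Psma7 had the largest difference of the 33, at 0.42 ± 0.17 (SE; limma adjusted p = 0.383), and its groups overlapped. It read 10.41, 10.91 and 11.22 in wildtype samples, against 11.31, 11.38, 11.17 and 11.21 in the samples without B2m, so wildtype array 1 stood far below the rest and wildtype array 3 within the knockout range. Without wildtype array 1 the difference of Psma7 was 0.2 and no longer had an unadjusted p under 0.05. Psma6 was the remaining alpha gene at that threshold, at 0.24 ± 0.10 (SE; limma adjusted p = 0.400).

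Psma4 encodes the alpha subunit whose tail helps to close the gate, and its values varied within both genotypes. It read 9.74, 9.11 and 9.75 in wildtype samples, against 9.52, 8.97, 9.85 and 9.68 in the samples without B2m. Wildtype array 2 and knockout array 2 were both low, and the difference of -0.03 ± 0.22 (SE) had the widest interval of the 33, from -0.51 to 0.45. Psma1 and Psma3 had differences of 0.15 ± 0.12 (SE) and 0.16 ± 0.16 (SE), with overlapping groups.

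The 6 measured beta genes all had differences above 0, with a median of 0.29. Among all tested genes 48.6% were above 0, and every knockout array was above every wildtype array in 7.1%. Psmb6, the caspase-like catalytic subunit, read 10.46, 10.71 and 10.87 in wildtype samples, against 11.12, 11.22, 11.03 and 10.92 in the samples without B2m. Each knockout array was above the highest wildtype array, and wildtype array 1 was the lowest. The difference was 0.39 ± 0.12 (SE), a ratio of 1.31 with a 95% interval of 1.08 to 1.58. The limma adjusted p was 0.334, and an exact permutation test of this gene alone, two-sided, gave p = 0.0286, the smallest that 3 against 4 arrays allow. Psmb7, the trypsin-like catalytic subunit, read 10.45, 10.52 and 10.47 in wildtype samples, against 10.74, 10.57, 10.81 and 10.67 in the samples without B2m. Its groups did not overlap either, with a difference of 0.21 ± 0.098 (SE; limma adjusted p = 0.432).

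The other 4 beta genes, Psmb1 to Psmb4, encode subunits without a cutting site, and all 4 had a difference above 0 with a median of 0.29. Psmb3 read 10.77, 10.97 and 11.13 in wildtype samples, against 11.37, 11.46, 11.35 and 11.09 in the samples without B2m. Knockout array 4 fell just inside the wildtype range, and the difference was 0.36 ± 0.12 (SE; limma adjusted p = 0.348). Psmb1 read 11.20, 11.72 and 11.81 in wildtype samples, against 11.94, 12, 11.84 and 11.90 in the samples without B2m. The groups did not overlap, yet wildtype array 1 lay far below the rest. The difference was 0.35 ± 0.14 (SE; limma adjusted p = 0.396), and without that array it was 0.16. Psmb4 and Psmb2 had differences of 0.23 ± 0.12 (SE) and 0.12 ± 0.11 (SE), with overlapping groups.

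The 6 ATPases of the base form the ring that unfolds substrates, and their differences had a narrow range. All 6 were above 0, between 0.15 and 0.23, where 48.6% of all tested genes were above 0. At an unadjusted p under 0.05, 0 of 6 were higher, against 8.39% of all tested genes. Psmc5 read 9.70, 9.56 and 9.84 in wildtype samples, against 10.03, 9.92, 9.82 and 9.91 in the samples without B2m. Only knockout array 3 overlapped the wildtype range, and the difference was 0.22 ± 0.11 (SE; limma adjusted p = 0.447). Psmc6 read 9.85, 9.77 and 9.74 in wildtype samples, against 10.04, 9.82, 9.97 and 10.08 in the samples without B2m, a difference of 0.19 ± 0.10 (SE; limma adjusted p = 0.486). Its knockout array 2 lay below wildtype array 1. Psmc1 was the 1 ATPase gene without overlap, at 0.17 ± 0.094 (SE).

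The other base subunits are the large scaffolds Psmd1 and Psmd2, which hold the ATPase ring and the docking sites for shuttle proteins, and the ubiquitin receptor Psmd4. Psmd4 read 9.51, 9.48 and 9.49 in wildtype samples, against 9.73, 9.63, 9.87 and 9.52 in the samples without B2m. The knockout arrays spread widely above a tight wildtype group, and the difference was 0.19 ± 0.11 (SE; limma adjusted p = 0.509). Psmd2 read 10.34, 10.13 and 10.20 in wildtype samples, against 10.31, 10.33, 10.31 and 10.55 in the samples without B2m. Its difference was 0.15 ± 0.11 (SE), with 1 high knockout array and overlapping groups. Psmd1 had a difference of -0.02 ± 0.10 (SE).

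The lid carries the deubiquitinase of the proteasome, and it held the gene with the smallest p of the 33. Psmd6, a structural lid subunit, read 9.24, 9.28 and 9.29 in wildtype samples, against 9.55, 9.51, 9.77 and 9.76 in the samples without B2m. The wildtype arrays lay within a narrow band and the 4 knockout arrays were well above it. The measured log2 difference was 0.38 ± 0.10 (SE). Its 3 wildtype values were not above the level that 95% of the negative control rows stay under, and all 4 knockout values were, so the wildtype level is only a bound. Against the mean of that level over the wildtype arrays, 9.42, the knockout mean of 9.65 was 1.17-fold higher. This is a point estimate without an interval. The level of wildtype array 2, 9.55, lay above the value of knockout array 2. The limma adjusted p was 0.315. The exact permutation test of this gene alone, unadjusted, gave p = 0.0286, the smallest that 3 against 4 arrays allow. Psmd13, another structural lid subunit, read 8.76, 8.67 and 8.98 in wildtype samples, against 9.28, 9.12, 8.98 and 9.10 in the samples without B2m. Knockout array 3 and wildtype array 3 were equal to 2 decimals, with knockout array 3 the higher, and the difference was 0.32 ± 0.11 (SE; limma adjusted p = 0.349).

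Psmd14, the deubiquitinase that removes ubiquitin from substrates, had a difference of 0.23 ± 0.10 (SE; limma adjusted p = 0.413) without overlap. Psmd7, the inactive partner that pairs with Psmd14, had a difference of -0.03 ± 0.12 (SE). Both probe sets were read in the same arrays, and their difference from each other was not tested. Psmd12 had a difference of 0.22 ± 0.10 (SE) without overlap, Psmd8 and Psmd11 had 0.16 ± 0.11 (SE) and 0.13 ± 0.11 (SE), and Psmd3 had -0.03 ± 0.13 (SE). None of these 4 reached an unadjusted p under 0.05. Of the 8 lid genes, 6 were above 0 and the median difference was 0.19. Psmd6, Psmd13 and Psmd14 were higher at an unadjusted p under 0.05, and all 3 lay under the negative control level in the wildtype arrays. Over all tested genes, 48.6% were above 0 and 8.39% were higher at that threshold.

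Psmd5, Psmd9 and Psmd10 encode chaperones that help to assemble the base and leave before the particle is complete. All 3 had differences above 0 with a median of 0.14, where 48.6% of all tested genes were above 0, and 0 of 3 reached an unadjusted p under 0.05. Psmd10 read 9.52, 9.50 and 10.08 in wildtype samples, against 10.07, 9.79, 9.94 and 10.01 in the samples without B2m, so its highest array was a wildtype one. The difference was 0.25 ± 0.15 (SE; limma adjusted p = 0.529). Psmd5 read 8.52, 8.44 and 8.29 in wildtype samples, against 8.78, 8.20, 8.47 and 8.78 in the samples without B2m, a difference of 0.14 ± 0.15 (SE), and its lowest array was a knockout one. Psmd5, Psmd13 and Psmd14 were the 3 genes below the level that 95% of negative control rows stay under in all 7 arrays, so that their differences give no fold, and 25 were above it in all 7.

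**Figure D2:**
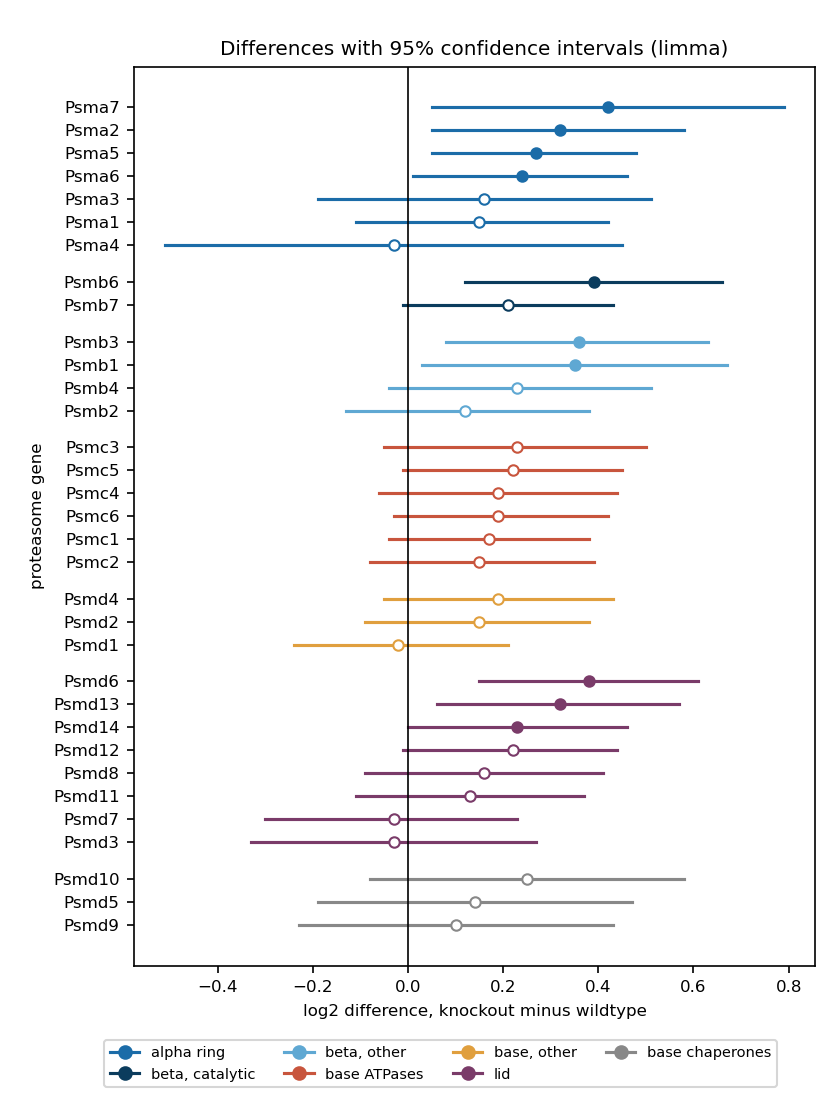
Difference of each of the 33 proteasome genes, knockout minus wildtype on the log2 scale, with 95% confidence intervals from limma, grouped by role. Filled points are the 10 genes with an unadjusted p under 0.05. 29 points lie to the right of 0, and Psma4, Psmd1, Psmd3 and Psmd7 lie just to the left.

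Core and regulatory particle leaned the same way. The median difference was 0.24 over the 13 core genes, a ratio of 1.18, and 0.18 over the 20 regulatory genes, a ratio of 1.13. Of the core genes, 12 of 13 were above 0, 7 were higher at an unadjusted p under 0.05 and 6 did not overlap. Of the regulatory genes, 17 of 20 were above 0, 3 were higher at that threshold and 6 did not overlap. Over all tested genes, 48.6% were above 0 and 8.39% were higher at that threshold. Every knockout array lay above every wildtype array in 7.1%. These medians are descriptions, because the genes were grouped with results of these data known. The 3 regulatory genes with an unadjusted p under 0.05 were Psmd6, Psmd13 and Psmd14. Psmd6 lay under the negative control level in the wildtype arrays, and Psmd13 and Psmd14 in all 7 arrays. The 7 such core genes lay above it in all 7 arrays. The median residual SD within genotypes was 0.16 for core genes and 0.12 for regulatory genes, against 0.16 over all tested genes.

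**Figure D3:**
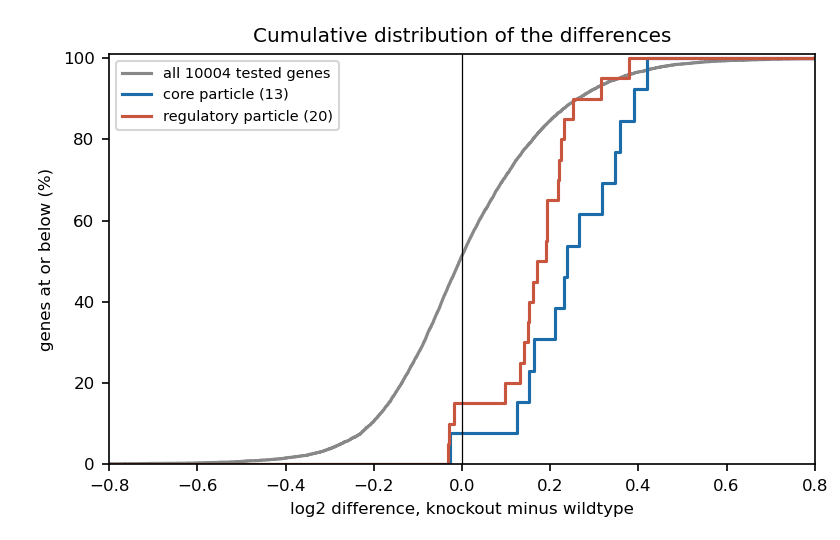
Cumulative distribution of the knockout minus wildtype differences (log2) for the 13 core genes, the 20 regulatory genes and all 10004 tested genes. Both proteasome curves lie to the right of the grey curve until they meet its upper tail, and the core curve ends at 0.42.

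The distance between the particles depended on wildtype arrays 1 and 2. In wildtype array 1 the median deviation from each gene's mean over 7 arrays was -0.34 for core and -0.065 for regulatory genes. In the other 6 arrays the core median minus the regulatory median ran from -0.035 to 0.12. Wildtype array 1 held the lowest value of 11 of the 13 core genes, and wildtype array 2 the lowest value of 11 of the 20 regulatory genes. Without wildtype array 1 both medians were 0.20, and without wildtype arrays 1 and 2 both were 0.16. Without wildtype array 2 alone the distance was wider, with medians of 0.31 for core and 0.15 for regulatory genes.

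Each of the 4 knockout arrays read high for most members. In knockout arrays 1 to 4, 30, 28, 32 and 29 of the 33 genes lay above the wildtype mean. In wildtype arrays 1 to 3, 5, 3 and 4 genes lay above the knockout mean. These counts largely restate the 29 of 33 differences above 0 and are not separate evidence. The same counts over all tested genes are not given here. The median deviation of the 33 was -0.12, -0.16 and -0.033 in wildtype samples, against 0.12, 0.043, 0.075 and 0.11 in the samples without B2m. These array medians did not overlap between genotypes, and wildtype array 3 lay closest to the knockout side. The array medians over all tested genes lay between -0.0064 and 0.038.

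**Figure D4:**
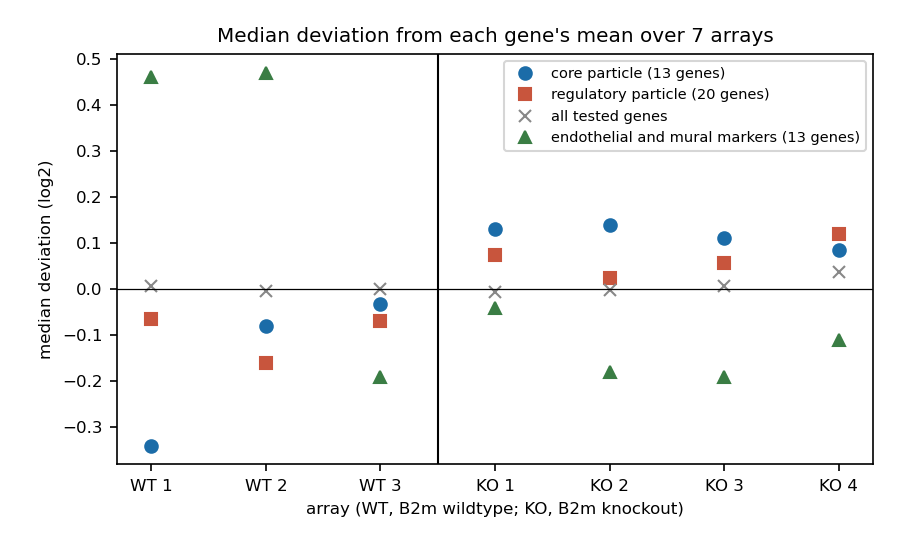
Median deviation from each gene's mean over 7 arrays (log2), by array, for core genes, regulatory genes, all tested genes and 13 endothelial and mural markers. The core median of -0.34 in wildtype array 1 lies apart, and the marker median is high at 0.46 and 0.47 in wildtype arrays 1 and 2.

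Other properties also varied between the arrays, and not all of them followed the values of the 33. The 13 endothelial and mural markers had median deviations of 0.46, 0.47 and -0.19 in wildtype and from -0.19 to -0.04 in knockout arrays. Their summed linear level was 20800, 21100 and 12000 in wildtype and 13100 to 14500 in knockout arrays, 6 of 13 (Cldn5, Flt1, Kdr, Ly6c1, Abcb1a and Vtn) lay above the control level in all 7 arrays and 4 (Slco1a4, Rgs5, Kcnj8 and Pdgfrb) below it in all 7. The rank correlation of a gene's deviation with its genomic span, over the tested genes, was 0.361 in wildtype array 1, 0.136 in wildtype array 2 and 0.222 in knockout array 4. It lay between -0.254 and -0.15 in the other 4. The members are short genes, with a median span of 13.2 kb against 21.3 kb over tested genes, and with each array's trend on span removed the median difference of the 33 was 0.17 and 11 were higher at an unadjusted p under 0.05 (7.99% of tested genes). Neutrophil markers, 4 of 6 above the control level in all arrays, had summed levels of 11900 to 18800 in wildtype. In knockout arrays 1 to 4 they were 11700, 17800, 24100 and 32500, highest in knockout array 4. Without knockout array 4 the median difference of the 33 was 0.19 and 8 were higher at an unadjusted p under 0.05 (8.48% of tested genes). Monocyte markers, 0 of 5 above the control level in all arrays and Ccr2 and Vcan below it in all 7, had summed levels of 1800 to 3080 in wildtype and 2560 to 6210 in knockout, again highest in knockout array 4. Border macrophage markers, of which Mrc1 and Pf4 lay above that level in all 7 arrays and Cd163, Lyve1 and F13a1 below it, summed to 3220 to 4080 in wildtype and 3060 to 3500 in knockout. The part of these markers and of gene span in the results was not tested further.

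Leaving arrays out changed the counts more than the medians. At an unadjusted p under 0.05, 3 of 33 were higher without wildtype array 1, when 4.74% of tested genes were. The count was 6 without wildtype array 2 (5.71% of tested genes), 6 without knockout array 1 (6.95%), 6 after repeated quantile normalization (6.81%) and 3 without wildtype array 1 and knockout array 4 (5.7%). It was 0 without wildtype arrays 1 and 2, which left 1 wildtype array assumed to vary like the knockout arrays, when 2.17% of tested genes were higher. The median over the 33 stayed between 0.16 and 0.23 under these and the other alternatives that gave one. Psmd6 and Psmb6 had an unadjusted p under 0.05 in each alternative limma fit other than the one without wildtype arrays 1 and 2. The other 8 of the 10 lost that threshold without wildtype array 1. Leaving out another single array also ended it for Psma2 (wildtype 2 or knockout 3), Psma5 (wildtype 3), Psma6 (any but wildtype 2 or knockout 3), Psma7 (wildtype 2, knockout 1 or 2), Psmb1 (knockout 1, 2 or 4), Psmd13 (wildtype 2 or knockout 1) and Psmd14 (any but knockout 1). By an exact permutation test over 35 arrangements of the arrays, two-sided, 7 of 33 were higher at p = 0.0286, the smallest it can give, against 4.74% of all tested genes.

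The deposited values cannot show how many proteasomes a cell held, but genes that act with the particle were read in the same arrays. Of 38 related genes in 7 lists, 29 were on the array and 23 were tested. At an unadjusted p under 0.05, 5 of 23 were higher and 0 lower, 3 did not overlap, and 17 were above 0. Over all tested genes, 8.39% were higher and 3.54% lower at that threshold, and 48.6% were above 0. Every knockout array lay above every wildtype array in 7.1%. The median difference over the 23 related genes was 0.12, and 0 of them passed the adjusted test.

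The 3 inducible catalytic subunits had differences above 0, and 2 were higher at an unadjusted p under 0.05. Those shares were 48.6% and 8.39% over all tested genes. Psmb8 read 10.51, 11.02 and 11.14 in wildtype samples, against 11.29, 11.50, 11.40 and 11.09 in the samples without B2m, a difference of 0.43 ± 0.16 (SE; limma adjusted p = 0.356). Psmb9 read 10.47, 10.72 and 11.13 in wildtype samples, against 11.19, 11.38, 11.24 and 10.84 in the samples without B2m, a difference of 0.39 ± 0.17 (SE; limma adjusted p = 0.406). Psmb10 read 9.76, 9.79 and 10.15 in wildtype samples, against 10.16, 10.30, 10.15 and 10.01 in the samples without B2m, a difference of 0.25 ± 0.12 (SE; limma adjusted p = 0.452). In Psmb8 and Psmb9 knockout array 4 fell among the wildtype arrays, and wildtype array 1 was the lowest.

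Whether the balance of inducible and constitutive catalytic subunits differed was examined within arrays. The log2 value of Psmb9 minus that of Psmb6, its constitutive partner, differed between genotypes by 0.00087 ± 0.11 (SE; exact permutation p = 1.0). That of Psmb10 minus Psmb7 differed by 0.042 ± 0.16 (SE; exact permutation p = 0.686, adjusted p = 1.0 over 2 pairs). Neither test detected a difference, which does not show that the balance was the same. The pair of Psmb8 and Psmb5 was not analysed here.

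Of the activators and the inhibitor that bind the core, 4 were tested, 4 were above 0 and 1 was higher at an unadjusted p under 0.05. Those shares were 48.6% and 8.39% over all tested genes, and in 7.1% every knockout array lay above every wildtype array. The 1 higher gene was Psme2, a subunit of the interferon-induced activator, at 0.33 ± 0.12 (SE; limma adjusted p = 0.349). It read 11.55, 11.81 and 11.96 in wildtype samples, against 12.09, 12.19, 12.14 and 11.99 in the samples without B2m, without overlap. Of the core assembly factors, 3 of 5 were above 0, and Psmg4, a chaperone of alpha ring assembly, had 0.53 ± 0.16 (SE; limma adjusted p = 0.320). Psmg4 read 8.06, 8.39 and 8.78 in wildtype samples, against 8.89, 8.94, 9.09 and 8.82 in the samples without B2m, again with wildtype array 1 lowest and no overlap. All 7 of its values lay under the negative control level, so the difference gives no fold. Psmg2 also lay under that level in all 7 arrays, and Psmg1 and Psmg3 were above it in only 1 array each.

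Of the proteins that associate with the regulatory particle, 3 of 4 were above 0, where 48.6% of all tested genes were. Sem1, a small lid component, read 11.25, 11.79 and 11.99 in wildtype samples, against 12.10, 12.15, 12.11 and 12.12 in the samples without B2m. The knockout arrays were nearly equal while the wildtype arrays were spread, and the difference was 0.44 ± 0.15 (SE; limma adjusted p = 0.348). Of the 3 tested genes of the transcriptional response, 2 were above 0 and 0 reached an unadjusted p under 0.05, with a median of 0.022. That median is the difference of Nfe2l2, which lay under the negative control level in all 7 arrays. Nfe2l1 itself was the 1 below 0, at -0.10 ± 0.10 (SE; limma adjusted p = 0.714). Of the 4 tested ubiquitin and shuttle genes, 2 were above 0 and 0 reached that threshold, with a median of 0.013.

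The DNA before the start sites was read because most members differed in the same direction and because the response element of Nfe2l1 is known. RefSeq promoter windows (GRCm38.p6) covered 27 of the 33 genes in 29 windows, and each window, 250 bases before to 50 bases after the start, was searched on both strands, where a base could count towards more than 1 motif. Psmb1, Psmb2, Psmb7, Psmc3, Psmd3 and Psmd7 were not matched. The core of the antioxidant response element, TGACNNNGC, lay in 4 of 29 windows, 13.8%, against 14.2% of the windows of tested genes and 12.4% of all windows. Those 4 matches are shown with their flanks, the match in capitals. Their share was near that of tested genes, and binding of Nfe2l1 to them was not measured. Psmb6 at chr11:70525338-70525367, Psmc6 at chr14:45329587-45329616, Psmd12 at chr11:107479278-107479307 and Psmd9 at chr5:123228149-123228178 are all genes of the plus strand, and the matches of Psmc6 and Psmd12 are on the opposite strand. All 4 matches lie before the start, with first bases 9, 227, 247 and 31 bases from it. For Psmb6 and Psmc6 the start of the window is not the start of the gene.
Psmb6: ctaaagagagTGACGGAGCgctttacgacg
Psmc6: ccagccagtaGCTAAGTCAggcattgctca
Psmd12: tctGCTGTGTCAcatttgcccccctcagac
Psmd9: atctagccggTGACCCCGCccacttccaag

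CCAAT boxes, the motif bound by the factor NF-Y, lay in 37.9% of the members' windows, against 37.1% of the windows of tested genes. By particle they lay in 6 of 11 core windows, 54.5%, and 5 of 18 regulatory windows, 27.8%. GGGCGG, the motif of the Sp family, lay in 62.1% of the members' windows against 60.1% of those of tested genes, in 45.5% of core and 72.2% of regulatory windows. CACGTG lay in 6.9% against 9.96%. These shares rest on few windows and are descriptions. The 250 bases before the start are shown for Psmb3 (chr11:97703184-97703433, plus strand) and Psmd6 (chr14:14120946-14121195, minus strand). These were the core and the regulatory gene with the smallest p among those whose window begins at the start of the gene. Capitals mark CCAAT, which occurs in Psmb3 at 2 places, and GGGCGG, which occurs in Psmd6.
Psmb3: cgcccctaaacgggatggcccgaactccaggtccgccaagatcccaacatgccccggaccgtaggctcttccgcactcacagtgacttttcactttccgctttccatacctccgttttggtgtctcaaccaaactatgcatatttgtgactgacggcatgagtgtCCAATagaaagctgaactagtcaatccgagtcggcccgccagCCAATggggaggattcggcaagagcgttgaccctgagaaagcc
Psmd6: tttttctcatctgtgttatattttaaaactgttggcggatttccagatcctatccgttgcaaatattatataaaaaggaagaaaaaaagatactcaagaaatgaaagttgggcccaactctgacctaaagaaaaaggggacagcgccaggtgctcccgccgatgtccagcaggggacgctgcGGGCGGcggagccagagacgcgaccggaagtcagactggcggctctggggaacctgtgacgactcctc

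Some members share a chromosome with the deleted gene. Chromosome 2, which carries B2m, holds 5 of the 33, and the nearest, Psmc3, lay 121 tested genes away from B2m in gene order. The others were Psmd14 at 196, Psmb7 at 224, Psmd5 at 237 and Psma7 at 301 tested genes. Their differences, 0.23, 0.23, 0.21, 0.14 and 0.42, were all above 0, as were 24 of the 28 on other chromosomes.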

How the data were processed

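The authors deposited log2 expression values per probe set, and per the submitters' processing notes used RMA and Affymetrix Expression Console 1.1. RMA normalizes between arrays, so a change shared by most genes would not show. A build and annotation for the array are not given in the sources used here. Of 28846 rows (3.57 to 14.34; array medians 7.68 to 7.75), 19572 had 1 gene symbol, matched by Entrez identifier to a RefSeq table (GRCm38.p6), which gave 19505 genes. The 5222 control rows named negative gave the background percentile. No further normalization was applied.

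Genes brighter than the median named gene on 3 or more of the 7 arrays were tested with lmFit and eBayes of limma 3.58.1 under R 4.3.3, after a check on simulated data. P-values were adjusted over all 10004 genes. Samples were grouped by genotype label. Values per array are given for the 2 genes of each role with the smallest p and for catalytic subunits, and of related genes for those with an unadjusted p under 0.05 and the inducible subunits. Members, lists and tests were chosen with earlier results of these data known. Psma4 and Psma7 are also given per array, and Nfe2l1, Nfe2l2, Psmg1, Psmg2 and Psmg3 are named, chosen after their values were seen. Alternatives covered the filter, the variance prior, array weights, normalization, probe set choice, gene span, arrays left out and an exact permutation test.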

Additional observations from a re-analysis of the deposited data

Results flagged for a closer look

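In 4 of 38 groups of 4 knockout arrays examined, 1 array stood far from the other 3, and chance alone marks about 1 in 20 such groups. Psmc2, a base ATPase, had its highest value, 10.74, in knockout array 4 against 10.45 to 10.50 in the others. Psmd2, a base scaffold, had its highest value, 10.55, in the same array against 10.31 to 10.33. Psmd3, a lid subunit, had its lowest value, 10.90, in that array against 11.20 to 11.24. Psmd11, a lid subunit, had its lowest value, 9.77, in knockout array 2 against 9.98 to 10.01.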

How the results depend on the processing

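No member passed the adjusted threshold under any of the alternatives, and the medians of all members and of each particle kept their sign. The count of members higher at an unadjusted p under 0.05 was 10 in the reported fit and 6 after repeated quantile normalization, 0 without wildtype arrays 1 and 2, 3 without wildtype array 1 and knockout array 4, and 3 to 11 when 1 array was left out. Some signs turned, including those of Psma3 and Psmd10, which had differences of 0.16 and 0.25 in the reported fit, and the cause was not tested. With array weights Psma4 was 0.12, Psmd3 0.051 and Psmd7 0.019. Centred on array medians, which moved the median of tested genes by 0.034, Psma4 was 0.0063, Psmd1 0.016, Psmd3 0.0052 and Psmd7 0.0015. With the span trend removed Psmd1 was 0.04. Without wildtype arrays 1 and 2 Psmd1 was 0.017, Psmd10 -0.13, the Psmb9 minus Psmb6 contrast -0.16 and the Psmb10 minus Psmb7 contrast -0.22. Without wildtype array 1 and knockout array 4 Psma3 was -0.038, Psma4 0.018, Psmd1 0.052 and Psmd3 0.11. Quantile normalization gave -0.0032 for Psmb9 minus Psmb6. With 1 array left out Psma4 ran from -0.24 to 0.15, Psmd1 from -0.075 to 0.056, Psmd3 from -0.16 to 0.05, Psmd7 from -0.086 to 0.052, Psmd9 from -0.036 to 0.17, Psmb9 minus Psmb6 from -0.042 to 0.084 and Psmb10 minus Psmb7 from -0.047 to 0.17. No paired analysis was possible because the serial numbers in the sample titles recur in no second group, and the exact permutation test gave no adjusted count, since its smallest p of 0.0286 cannot pass over so many genes. Signal over background limits Psmd5, Psmd13, Psmd14, Psmg2, Psmg4 and Nfe2l2 in all arrays and Psmd6 in the wildtype arrays. It limits Psma4, Psmd4, Psmd9, Psmd10, Psmg1, Psmg3 and other related genes in some.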
